A study of Mus musculus with 27 samples.

Results

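Glycolysis and hypoxia-response genes were followed through 27 mouse libraries in 9 groups of 3, as 36 genes chosen by symbol. Their list was made with earlier results of these data known. All 36 had a row in each of the 3 count tables. The tables held 22906 gene rows for the AKT(E17K) mice and 46078 gene rows each for the empty-vector mice and the ProT cells. The members were 15 glycolytic enzymes, 4 glucose or lactate transporters, 3 regulators of glycolytic flux, 3 genes of the hypoxia-inducible factor (HIF) pathway and 11 HIF targets outside glycolysis. The series title names cooperation of TAL1, a transcription factor of T cell acute lymphoblastic leukaemia, with the PI3K/AKT pathway. Thymus came from 12 C57BL/6 mice after bone marrow transplantation, 3 in each of 4 groups. These were labelled as constitutive TAL1 with AKT(E17K), which carries an activating mutation of a growth-signalling kinase; AKT(E17K) alone; TAL1; and empty vector. ProT cells, which are 1 mouse cell line, carried TAL1 under induction through CreER and LoxP. They were taken 0, 6, 12, 18 and 24 h after 4-hydroxytamoxifen, and the libraries used here include no untreated cells at the later times. The sources used here do not give the age or sex of the mice, the promoters, the donor cells or any sort of the thymus cells. The labels did not say that the 3 ProT libraries of a time were separate cultures, so p-values in ProT cells measure only how these samples spread, which may be a technical spread.

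Glycolysis splits glucose into pyruvate in the cytosol, and lactate dehydrogenase turns pyruvate into lactate, which leaves through monocarboxylate transporters. HIF-1 is a pair of proteins whose oxygen-sensitive subunit, HIF1A, is hydroxylated by prolyl hydroxylases (EGLN proteins) and then destroyed. When hydroxylation stops, HIF-1 binds short DNA cores and raises transcription of most glycolytic enzymes, of glucose transporters, and of genes of mitophagy, collagen hydroxylation and blood vessel growth. Dividing T cells and leukaemic T cells are known to run a high rate of glycolysis, and signalling through PI3K, AKT and mTOR is known to raise it.

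Total counts in genes were 2230143 to 2792084 in mice labelled AKT(E17K) with TAL1, 2073752 to 3661056 with AKT(E17K) alone, 7155918 to 11302098 with TAL1, 3893990 to 5915285 with empty vector, and 2660641 to 6599146 in ProT cells. Replicates varied with a biological coefficient of variation of 35.0% (AKT(E17K) table), 22.0% (empty-vector table) and 11.6% (ProT cells), so the ProT libraries resolve smaller changes. Tal1 did not follow the labels. It had no count in any mouse labelled TAL1, AKT(E17K) with TAL1 or empty vector, 7 counts in mouse m121 labelled AKT(E17K) alone, and 1963 to 2068 CPM in ProT cells at 24 h, against 2895 to 3098 CPM at 0 h. A TAL1 sequence outside the counted gene would not be seen, and groups are named by their labels. Levels are CPM (counts scaled to a common library size by TMM factors) within each table. Defining T cell markers were present in thymus (Cd8a 295.0 to 1319 CPM, Cd3e 224 to 316.8 CPM over the 12 mice). In ProT cells Cd4 and Cd8a were at 0 in most libraries and at most 0.223 CPM, while Lck was 202 to 253 CPM and Cd3e 5.44 to 14.1 CPM. ProT cells also held 243 to 407 CPM of Hbb-bt, a haemoglobin chain. Among ProT libraries, 6 h library 1 stood apart, with a chi-square per degree of freedom of 20.7 and 17 against 6 h libraries 2 and 3, which differed from each other by 3.56. Library 1 of 12 h stood apart in the same way (18.1 and 16.8, against 6.76 between 12 h libraries 2 and 3).

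In ProT cells most of the tested members rose between 6 and 12 h after tamoxifen, and some of them fell again by 24 h. The filter on low counts left 34 of the 36 members for testing, and Slc16a3 and P4ha2 were too low. Of all 13610 genes tested, 12% differed at 12 h from 0 h, 6.33% higher and 5.69% lower (adjusted p under 0.05, edgeR quasi-likelihood test with Benjamini-Hochberg adjustment over all genes). Of the 34 members, 23 were higher at 12 h and 0 were lower. Because the list was made with earlier results known, member counts beside shares of all genes are a description and no test of the list. Their median log2 fold change was 0.86, beside -0.01 for all genes at each of 12, 18 and 24 h. At 18 h 19 members were higher and 0 lower, where 8.82% of all genes passed (4.89% higher and 3.92% lower), and the median member was 0.61 above 0 h on the log2 scale. At 24 h 11 were higher and 1 was lower, where 18.7% of all genes passed (9.43% higher and 9.3% lower), and the median member was 0.24 above 0 h. At 6 h 0 members passed, as did 0% of all genes by edgeR. At that time 1 member had an unadjusted p under 0.05, DESeq2 called 0 members, and 734 of all genes had an unadjusted p under 0.05. Over all times 27 members changed, where 18% of all genes did, and 24 of the 27 kept the call whichever library was left out. Each comparison with 0 h uses the same 3 libraries.

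Without the 6 h library that stood apart, 26, 20 and 12 members passed at 12, 18 and 24 h against 0 h. Without 12 h library 1 the counts were 23, 19 and 12, and without 12 h library 3 they were 22, 20 and 12. The number of all genes called depended on single libraries. At 12 h, beside 1635 with all libraries, it was 918 without 0 h library 1 and 819 without 0 h library 2. At 18 h, beside 1200, leaving out 0 h library 1 gave 619, 0 h library 2 471, 18 h library 1 419 and 18 h library 2 769, and the members called were 15, 16, 16 and 15. At 24 h, beside 2549, leaving out 0 h library 1 gave 1562, 0 h library 2 1447, 24 h library 1 1682 and 24 h library 2 1665, and the members called were 9, 9, 10 and 11. Scaling by library size alone moved the median of all genes by 0.18, 0.13 and 0.17 (log2) at 12, 18 and 24 h. On that scale 2041 of all genes were higher and 339 lower at 12 h, where TMM gave 861 and 774, and at 24 h 2560 were higher and 622 lower, where TMM gave 1283 and 1266. At 18 h the split was 1122 higher and 246 lower, where TMM gave 666 and 534. The members called numbered 28, 20 and 13 with that scaling, all of them higher. Markers of cell division also rose. Of 12 such genes, 8 were higher at 12 h, 4 at 18 h and 10 at 24 h, and their summed level was 1025 to 1066 CPM (0 h), 1020.0 to 1303 CPM (6 h), 1437 to 1667 CPM (12 h), 1292 to 1530.0 CPM (18 h) and 1692 to 1738 CPM (24 h). None of the 12 was at 0, and their part in the result was not tested. Beside their counts, 6.33%, 4.89% and 9.43% of all genes were called higher at 12, 18 and 24 h with TMM. In bulk samples, fewer cells of a type and less RNA per cell cannot be told apart.

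Among the 15 enzymes, 13 passed at 12 h, 11 at 18 h and 9 at 24 h, and each of these was higher than at 0 h. Of all genes, 6.33%, 4.89% and 9.43% were called higher at these times. The median enzyme was above 0 h by 1.05 (12 h), 0.76 (18 h) and 0.51 (24 h) on the log2 scale. Tpi1, triosephosphate isomerase (chromosome 6, 124810586 to 124814296, GRCm38), had 24.3, 30.3 and 32.7 CPM (0 h), 40.4, 27.4 and 25.2 CPM (6 h), 90.9, 102 and 112 CPM (12 h), 82.8, 83.6 and 69.4 CPM (18 h) and 59.3, 57.7 and 49.2 CPM (24 h). Every 12 h library was above every library of 0 and 6 h. It had the smallest p of all 13610 genes in that comparison, with a log2 fold change of 1.78 ± 0.15 (SE) at 12 h (adjusted p = 3.75e-08, edgeR), 1.40 ± 0.15 at 18 h and 0.91 ± 0.16 at 24 h. Among the 25 genes with the smallest p at 12 h, 9 were members: Tpi1, Aldoa, Pkm, Bnip3, Ldha, Pgk1, Pgam1, Slc2a1 and Egln3.

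Among the first steps of the pathway, some genes passed at every later time and others at none. Hk1, hexokinase 1, which traps glucose in the cell as its phosphate, had 34.3, 29.2 and 35.2 CPM (0 h), 49.4, 34.4 and 36.7 CPM (6 h), 58.2, 50.8 and 53.3 CPM (12 h), 43.4, 53.0 and 43.5 CPM (18 h) and 48.2, 49.3 and 52.2 CPM (24 h). The 12 h libraries were all above the 0 h and 6 h libraries, and the 24 h libraries stayed above those of 0 h. Its log2 fold change was 0.72 ± 0.14 (12 h, adjusted p = 0.000995), 0.50 ± 0.14 (18 h, adjusted p = 0.0267) and 0.60 ± 0.14 (24 h, adjusted p = 0.00374, edgeR). Hk2, the inducible hexokinase of growing and cancer cells, had 64.4, 64.3 and 56.8 CPM (0 h), 73.2, 69.7 and 50.1 CPM (6 h), 80.6, 88.7 and 100.2 CPM (12 h), 74.0, 94.2 and 79.8 CPM (18 h) and 78.7, 79.0 and 68.6 CPM (24 h). It was 0.54 ± 0.13 above 0 h at 12 h on the log2 scale (adjusted p = 0.008) and 0.42 ± 0.14 (18 h, adjusted p = 0.049, edgeR). At 24 h Hk2 did not pass (0.29 ± 0.13, adjusted p = 0.123), although its 24 h libraries lay above those of 0 h; it was called with scaling by library size alone (0.49, adjusted p = 0.023) and in a fit of these times alone (0.30, adjusted p = 0.0235). The 18 h calls of both hexokinases were lost when single libraries were left out, with adjusted p between 0.0568 and 0.144 for Hk1 and between 0.0522 and 0.201 for Hk2.

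Gpi1, which turns glucose phosphate into fructose phosphate, had 88.7, 85.9 and 96.8 CPM (0 h), 113, 96.5 and 76.3 CPM (6 h), 163, 163 and 148 CPM (12 h), 161, 172 and 127 CPM (18 h) and 121.3, 113 and 129 CPM (24 h). Its log2 fold change was 0.80 ± 0.13 (12 h), 0.76 ± 0.13 (18 h) and 0.41 ± 0.13 (24 h) (adjusted p = 0.000156, 0.000572 and 0.0263, edgeR). The 24 h call was lost without 0 h library 1 or 2 or 24 h library 1 or 3 (adjusted p 0.0693 to 0.107). Phosphofructokinase, the committed step, is encoded by Pfkl, Pfkm and Pfkp. Pfkl had 15.1, 10.5 and 16.0 CPM (0 h), 14.6, 11.7 and 15.6 CPM (6 h), 42.7, 37.9 and 30.7 CPM (12 h), 34.4, 29.8 and 22.4 CPM (18 h) and 26.7, 23.7 and 31.4 CPM (24 h). Its 12 h, 18 h and 24 h libraries were all above those of 0 and 6 h, with log2 fold changes of 1.42 ± 0.19, 1.04 ± 0.20 and 0.96 ± 0.19 against 0 h (adjusted p = 1.6e-05, 0.00121 and 0.00107). Against 0 h, Pfkp passed at 12 h and not later, at 0.77 ± 0.14 (adjusted p = 0.000696), with 0.26 at 18 h and 0.21 at 24 h. Pfkm, the muscle form, did not pass at any time, with 0.30 ± 0.24 at 12 h and levels of 6.30 to 12.6 CPM in the 15 libraries.

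Aldoa, aldolase A, had 149, 158 and 188 CPM (0 h), 234, 162 and 162 CPM (6 h), 473, 440.0 and 444 CPM (12 h), 409, 478 and 307 CPM (18 h) and 259, 244 and 259.8 CPM (24 h). The 12 h libraries lay close together and far above 0 h, the 18 h libraries were spread, and the 24 h libraries were again close together and all above 0 h. The log2 fold change was 1.45 ± 0.15 (12 h), 1.26 ± 0.15 (18 h) and 0.62 ± 0.15 (24 h) (adjusted p = 4.36e-07, 4.14e-06 and 0.00386, edgeR). Aldoc, the brain form of aldolase, had 1.67, 1.13 and 0.973 CPM (0 h), 2.61, 1.35 and 1.78 CPM (6 h), 4.07, 4.90 and 1.43 CPM (12 h), 4.43, 1.97 and 2.61 CPM (18 h) and 0.613, 1.42 and 1.70 CPM (24 h), so its groups overlapped. Its 12 h log2 fold change of 1.56 ± 0.53 had an adjusted p of 0.0499, which rose to between 0.0517 and 0.188 on leaving out 1 of 13 of the 15 libraries, to 0.0679 by DESeq2 and to 0.0649 with the replicate number as a block. Gapdh, the next enzyme, had only 6.09 to 12.6 CPM in ProT cells and did not pass (0.23 ± 0.24 at 12 h). Of its 50-base exon windows, 82.5% also occur in other annotated genes, 222 of them, and its values are uncertain.

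From phosphoglycerate kinase on, the enzyme of every step was higher at 12 h. Pgk1, phosphoglycerate kinase, had 88.3, 88.7 and 105 CPM (0 h), 123.7, 84.8 and 92.4 CPM (6 h), 181.9, 206 and 226 CPM (12 h), 187, 193 and 138 CPM (18 h) and 139, 135 and 136 CPM (24 h). Pgam1, phosphoglycerate mutase, had 98.3, 95.8 and 106 CPM (0 h), 135, 92.0 and 97.3 CPM (6 h), 194, 207 and 223 CPM (12 h), 177, 177 and 138 CPM (18 h) and 139, 135 and 154 CPM (24 h). In both, every 12 h library was above every library of 0 and 6 h, and all 24 h libraries stayed above 0 h. The log2 fold changes of Pgk1 were 1.11 ± 0.14, 0.87 ± 0.14 and 0.53 ± 0.14 at 12, 18 and 24 h (adjusted p = 9.13e-06, 0.000283 and 0.00913, edgeR), and the last call was lost without 0 h library 2 (adjusted p = 0.0517). Those of Pgam1 were 1.05 ± 0.13, 0.71 ± 0.13 and 0.51 ± 0.13 (adjusted p = 9.13e-06, 0.0012 and 0.00848). Eno1, enolase, had 25.5, 32.9 and 34.1 CPM (0 h), 31.8, 34.9 and 33.4 CPM (6 h), 57.1, 61.0 and 56.8 CPM (12 h), 50.4, 56.0 and 40.0 CPM (18 h) and 33.7, 30.0 and 36.7 CPM (24 h). Its log2 fold change was 0.90 ± 0.14 (12 h) and 0.63 ± 0.14 (18 h), with adjusted p = 7.35e-05 and 0.00486. By 24 h its libraries overlapped those of 0 h (0.09 ± 0.14, adjusted p = 0.682).

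Pkm, pyruvate kinase, had 162, 171 and 199 CPM (0 h), 278, 172 and 163 CPM (6 h), 474, 455 and 447 CPM (12 h), 431, 418 and 325 CPM (18 h) and 307, 320.3 and 314 CPM (24 h). Library 1 of 6 h was above all 0 h libraries, the other 6 h libraries were not, and every library from 12 h on was higher still. The log2 fold change was 1.37 ± 0.15 (12 h), 1.14 ± 0.15 (18 h) and 0.82 ± 0.15 (24 h) (adjusted p = 1.48e-06, 3.04e-05 and 0.000437, edgeR). Ldha, which makes lactate from pyruvate, had 89.9, 109 and 116.6 CPM (0 h), 136, 90.0 and 95.0 CPM (6 h), 214, 223 and 249 CPM (12 h), 204, 213 and 165 CPM (18 h) and 156, 153 and 157 CPM (24 h). Its 12 h libraries did not overlap those of 0 or 6 h, and its 24 h libraries lay between. The log2 fold change was 1.11 ± 0.14 (12 h), 0.87 ± 0.14 (18 h) and 0.55 ± 0.14 (24 h) (adjusted p = 9.13e-06, 0.000251 and 0.00586). Near-identical copies also touch Eno1 (72.2% of its windows shared), Pgk1 (68%), Pgam1 (41.5%), Pkm (34.4%) and Gpi1 (25.3%). Among the 24 tested members with under 20% shared, 15 were higher at 12 h, and 8 of the other 10 were.

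**Figure D1:**
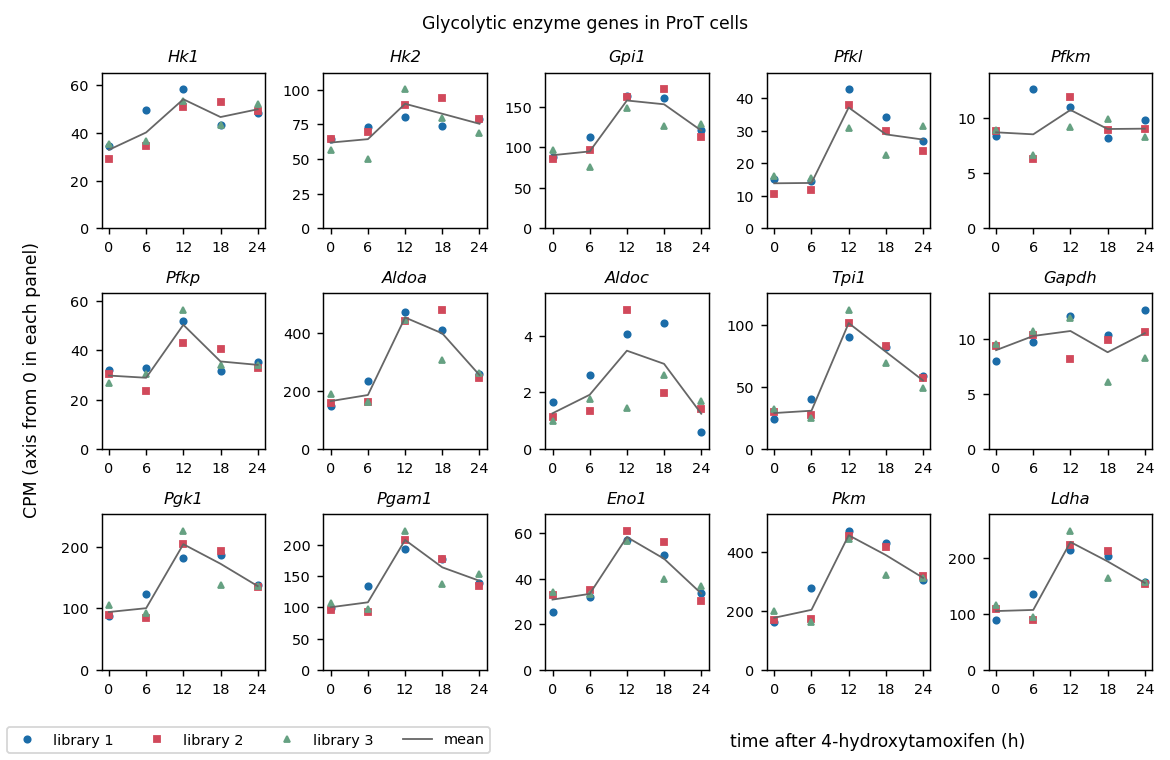
Level in CPM (vertical axis, from 0 in each panel) of the 15 glycolytic enzyme genes against hours after 4-hydroxytamoxifen in ProT cells, with 1 symbol per library and a line through the means of 3. In all 15 panels the highest mean is at 12 h, and Tpi1 stands at 90.9 to 112 CPM there against 24.3 to 32.7 CPM at 0 h.

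Of the transporters, Slc2a1, which encodes the glucose transporter GLUT1 (chromosome 4, 119108711 to 119137983), was the one that passed at 12 and 18 h. It had 10.04, 9.07 and 10.5 CPM (0 h), 12.0, 9.22 and 13.8 CPM (6 h), 23.4, 28.3 and 40.8 CPM (12 h), 22.3, 22.2 and 16.0 CPM (18 h) and 13.7, 13.6 and 13.4 CPM (24 h). The 12 h libraries were spread but all above 0 h, and at 24 h the libraries were just above those of 0 h without overlap. The log2 fold change was 1.62 ± 0.21 (12 h) and 1.01 ± 0.22 (18 h) (adjusted p = 1.27e-05 and 0.00442), and 0.45 ± 0.23 at 24 h did not pass (adjusted p = 0.163, edgeR). Slc2a3, the high-affinity transporter GLUT3, was low, with 3.35, 0 and 1.36 CPM (0 h), 1.38, 0.450 and 1.34 CPM (6 h), 3.19, 3.67 and 5.12 CPM (12 h), 2.95, 1.48 and 1.22 CPM (18 h) and 1.53, 1.26 and 2.97 CPM (24 h). Its 12 h and 0 h libraries overlapped and the difference did not pass (1.49 ± 0.57, adjusted p = 0.0858). Against 6 h it was higher at 12 h (1.83 ± 0.55, adjusted p = 0.0291), a call lost on leaving out 6 h library 2 or 3 or 12 h library 2 or 3 (adjusted p 0.0652 to 0.143). Slc16a1, the monocarboxylate transporter MCT1, stayed between 34.0 and 59.1 CPM and passed at no time. Slc16a3, the transporter MCT4 of lactate-exporting cells, was at most 0.85 CPM in ProT cells.

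Pdk1, the kinase that closes pyruvate's way into mitochondria by switching off pyruvate dehydrogenase, had 51.5, 51.3 and 50.03 CPM (0 h), 54.3, 53.3 and 55.0 CPM (6 h), 81.9, 90.1 and 108 CPM (12 h), 92.7, 102 and 74.4 CPM (18 h) and 54.1, 58.9 and 54.3 CPM (24 h). The 0, 6 and 24 h libraries lay within 50 to 58.9 CPM and those of 12 and 18 h were at 74.4 CPM or more. Its log2 fold change was 0.87 ± 0.12 (12 h) and 0.81 ± 0.13 (18 h) (adjusted p = 3.77e-05 and 0.000199), and 0.13 ± 0.13 (24 h, adjusted p = 0.484, edgeR). Pfkfb3 and Pfkfb4 make the fructose bisphosphate that activates phosphofructokinase. Pfkfb3 had 26.4, 22.1 and 32.3 CPM (0 h), 39.1, 30.4 and 31.2 CPM (6 h), 41.7, 32.7 and 37.1 CPM (12 h), 39.4, 29.8 and 28.2 CPM (18 h) and 37.6, 38.1 and 39.5 CPM (24 h). Against 0 h it passed at 24 h and not earlier (0.49 ± 0.16, adjusted p = 0.0284), and that call was lost without 0 h library 1 or 2 or any 24 h library (adjusted p 0.0603 to 0.173). Pfkfb4 had 7.53, 5.95 and 4.28 CPM (0 h), 6.60, 9.22 and 6.90 CPM (6 h), 7.40, 5.35 and 7.38 CPM (12 h), 5.90, 8.14 and 7.999 CPM (18 h) and 5.06, 6.32 and 4.46 CPM (24 h) and did not pass.

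Hif1a itself did not pass at any time. It had 42.3, 42.2 and 53.7 CPM (0 h), 53.6, 45.2 and 54.3 CPM (6 h), 50.1, 46.4 and 53.3 CPM (12 h), 52.9, 53.0 and 47.5 CPM (18 h) and 49.7, 51.4 and 51.6 CPM (24 h), with overlap between all times, and its log2 fold change was 0.10 ± 0.12 at 12 h and 0.13 ± 0.12 at 24 h. HIF1A is known to be controlled largely at the protein level, which these counts do not measure. The prolyl hydroxylase genes among the members, Egln3 and Egln1, which are HIF targets as well as brakes on it, rose. Egln3 had 44.3, 54.4 and 52.8 CPM (0 h), 59.9, 47.0 and 47.6 CPM (6 h), 96.0, 89.2 and 113 CPM (12 h), 71.6, 80.4 and 68.5 CPM (18 h) and 52.6, 61.0 and 54.6 CPM (24 h). Its 12 h libraries were all above every library of 0, 6 and 24 h, with 0.96 ± 0.13 (12 h, adjusted p = 1.43e-05) and 0.53 ± 0.13 (18 h, adjusted p = 0.0103, edgeR). Egln1 had 26.4, 25.2 and 37.2 CPM (0 h), 42.7, 34.2 and 29.4 CPM (6 h), 47.5, 39.8 and 65.0 CPM (12 h), 48.3, 50.1 and 42.3 CPM (18 h) and 39.4, 38.9 and 35.9 CPM (24 h). The 12 h and 18 h libraries were all above those of 0 h, with log2 fold changes of 0.74 ± 0.17 (12 h) and 0.63 ± 0.17 (18 h). The 18 h calls of both were lost when single libraries were left out (adjusted p 0.0551 to 0.0605 for Egln3 and 0.075 to 0.13 for Egln1).

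Among the 11 HIF targets outside glycolysis, 10 were tested. Of these, 6 were higher at 12 h, 4 at 18 h and 1 at 24 h, with 1 lower at 24 h. The shares of all genes called higher were 6.33%, 4.89% and 9.43% at these times, and 9.3% were lower at 24 h. The 24 h counts were thus near the shares of all genes. Over all times each of the 10 tested changed, beside 18% of all genes. The call of Vegfa was lost without 6 h library 2 (adjusted p = 0.0692, edgeR). That of Higd1a was lost without 12 h library 2 or 3 or 24 h library 1 or 2 (adjusted p 0.061 to 0.161). Bnip3, a mitochondrial protein that marks mitochondria for removal (chromosome 7, 138890836 to 138909519), had 7.53, 10.8 and 9.34 CPM (0 h), 9.98, 10.8 and 9.12 CPM (6 h), 31.5, 33.7 and 48.0 CPM (12 h), 22.6, 32.8 and 16.4 CPM (18 h) and 8.89, 10.1 and 10.4 CPM (24 h). The 12 h libraries were all far above those of 0 h, and the 24 h libraries were within the 0 h range. Its log2 fold change was 2.0 ± 0.22 (12 h, adjusted p = 1.67e-06), 1.33 ± 0.23 (18 h, adjusted p = 0.000668) and 0.06 ± 0.25 (24 h, adjusted p = 0.891, edgeR). Since 62.4% of its windows occur in other genes, and 22.3% of its exon bases overlap another gene, its level is uncertain. Its relative Bnip3l was 0.51 ± 0.13 above 0 h at 12 h.

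Ankrd37, an ankyrin repeat gene known mainly as a HIF target (chromosome 8, 45996902 to 46005707), had 3.35, 2.55 and 3.89 CPM (0 h), 2.61, 4.72 and 5.79 CPM (6 h), 10.9, 8.41 and 22.3 CPM (12 h), 11.6, 17.01 and 9.22 CPM (18 h) and 3.53, 2.21 and 2.55 CPM (24 h). Library 3 of 12 h was the highest, and all 12 h and 18 h libraries were above all others. Its log2 fold change was 2.03 ± 0.37 (12 h) and 1.90 ± 0.38 (18 h) (adjusted p = 0.000644 and 0.00237), and -0.25 ± 0.45 (24 h, adjusted p = 0.728, edgeR). Another gene on the opposite strand overlaps 26.4% of its exon bases, and reads of the 2 cannot be told apart if strand was not used. P4ha1, a collagen prolyl hydroxylase subunit, had 13.8, 15.02 and 14.6 CPM (0 h), 14.7, 16.0 and 16.3 CPM (6 h), 27.2, 19.1 and 32.8 CPM (12 h), 21.5, 31.3 and 17.9 CPM (18 h) and 10.1, 16.4 and 11.3 CPM (24 h). It passed at 12 h (0.85 ± 0.22, adjusted p = 0.0103), a call lost without 12 h library 3 (adjusted p = 0.0539), and not at 18 h (0.68 ± 0.22, adjusted p = 0.0537). Ero1l, an oxidase of the endoplasmic reticulum, was 0.87 ± 0.19 above 0 h at 12 h. Library 3 of 12 h was the highest of its 3 for 15 of the 19 tested members outside the enzymes, and for 6 of the 15 enzymes.

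Some targets had courses of their own. Mif, a cytokine that is also abundant inside cells, had 157, 159 and 195 CPM (0 h), 228, 154 and 174 CPM (6 h), 324, 309.6 and 305 CPM (12 h), 301, 301 and 245 CPM (18 h) and 272, 271 and 275 CPM (24 h). It stayed up, with log2 fold changes of 0.87 ± 0.13, 0.73 ± 0.13 and 0.67 ± 0.13 (adjusted p = 4.96e-05, 0.000693 and 0.000659, edgeR), and its level is uncertain because 76.4% of its windows are shared. Ddit4, an inhibitor of mTOR that stress and low oxygen induce, had 43.1, 49.9 and 50.03 CPM (0 h), 58.6, 52.6 and 54.3 CPM (6 h), 60.1, 54.5 and 63.5 CPM (12 h), 74.6, 81.6 and 63.0 CPM (18 h) and 48.9, 48.5 and 42.9 CPM (24 h). It did not pass at 12 h (0.30 ± 0.12, adjusted p = 0.0974) except with scaling by library size alone (0.49, adjusted p = 0.0194). It was higher at 18 h, when no library overlapped 0 h (0.60 ± 0.12, adjusted p = 0.00245), and it stood at -0.03 ± 0.12 at 24 h. Kdm3a, a histone demethylase, had 51.9, 40.0 and 43.0 CPM (0 h), 41.9, 40.0 and 39.4 CPM (6 h), 43.6, 40.4 and 62.7 CPM (12 h), 56.1, 49.8 and 48.2 CPM (18 h) and 30.5, 31.9 and 26.1 CPM (24 h). It was lower at 24 h than at 0 h, with no overlap (-0.59 ± 0.15, adjusted p = 0.0075, edgeR), a call lost without 0 h library 1 (adjusted p = 0.0534) and with scaling by library size alone (-0.40, adjusted p = 0.0838). Vegfa, the blood vessel growth factor, had 15.5, 25.5 and 18.5 CPM (0 h), 16.4, 12.8 and 20.9 CPM (6 h), 28.9, 25.7 and 30.1 CPM (12 h), 22.6, 27.9 and 24.2 CPM (18 h) and 22.5, 24.7 and 23.4 CPM (24 h). Its 12 h libraries lay just above those of 0 h. They passed against 6 h (0.75 ± 0.17, adjusted p = 0.00409) but not against 0 h (0.49 ± 0.17, adjusted p = 0.0621), where the call was made without 0 h library 2 (0.71, adjusted p = 0.0264) or any 6 h library and with scaling by library size alone (0.68, adjusted p = 0.0107). Higd1a, a protein of the inner mitochondrial membrane, passed against 6 h as well (0.50 ± 0.14) and not against 0 h (0.41 ± 0.14). P4ha2 was at most 0.986 CPM.

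**Figure D2:**
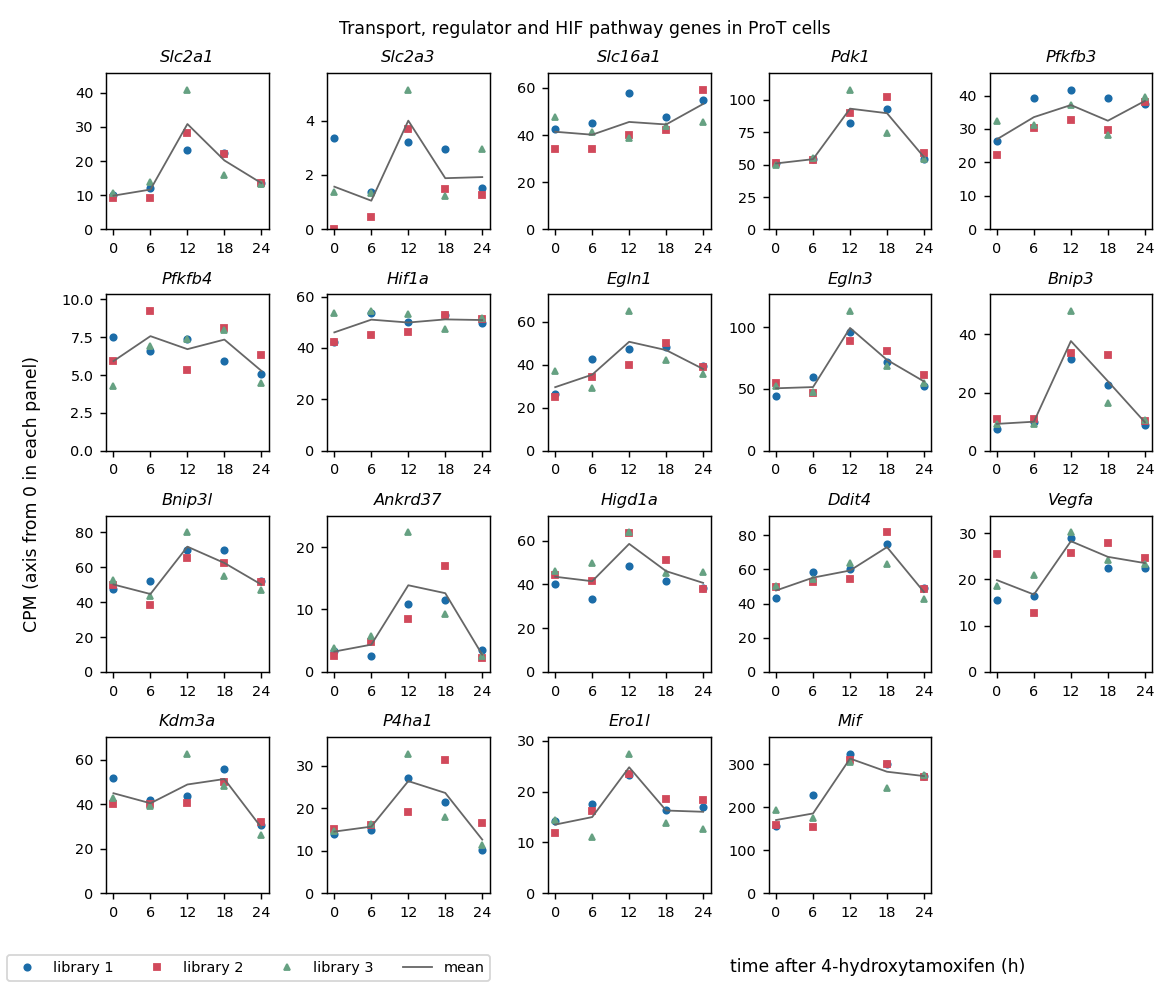
Level in CPM (vertical axis, from 0 in each panel) of the 19 tested members outside the glycolytic enzymes against hours after 4-hydroxytamoxifen in ProT cells, with 1 symbol per library and a line through the means of 3. Bnip3, Ankrd37, Slc2a1, Egln3 and Pdk1 have their highest mean at 12 h and are lower by 24 h, when Slc2a1 is still just above 0 h. The 12 and 18 h libraries overlap for Bnip3, Ankrd37 and Pdk1. Mif stays up, and Hif1a remains between 42.2 and 54.3 CPM.

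Promoter sequences are shown for the 4 members with the largest log2 fold change at 12 h over 0 h, because HIF-1 is known to bind the core ACGTG or GCGTG. RefSeq promoter windows of 300 bases around the annotated start (GRCm38.p6) were matched for 34 of the 36 members, 50 windows in all, and those without a match were Bnip3l and Slc2a3. Either core, on either strand and with overlapping matches each counted so that CACGTG holds 1 on each strand, was found in 40 of the 50 windows (80%), and in 14380 of all 32851 windows (43.8%). At least 2 matches were found in 30 member windows (60%) and in 20.6% of all windows. Member windows were also richer in G and C (median 64% against 52.7%) and in CG pairs (median 22 against 7), and both cores contain CG, so the part of base composition in this difference was not tested. A match of letters is a description and not a site. In the lines that follow, each 5′ to 3′ in the gene's direction, capitals mark the cores and their reverse complements. Bnip3 (chr7:138909457-138909756, minus strand) has 5 matches, Ankrd37 (chr8:45999801-46000100, minus strand) 4, Slc2a1 (chr4:119108495-119108794, plus strand) 2 and Tpi1 (chr6:124814109-124814408, minus strand) 0.
Bnip3: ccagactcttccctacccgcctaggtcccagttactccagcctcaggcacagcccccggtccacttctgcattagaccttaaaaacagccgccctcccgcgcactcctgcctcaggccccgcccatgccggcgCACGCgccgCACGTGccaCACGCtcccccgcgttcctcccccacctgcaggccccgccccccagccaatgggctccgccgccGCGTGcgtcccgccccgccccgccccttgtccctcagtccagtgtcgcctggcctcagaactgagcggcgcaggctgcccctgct
Ankrd37: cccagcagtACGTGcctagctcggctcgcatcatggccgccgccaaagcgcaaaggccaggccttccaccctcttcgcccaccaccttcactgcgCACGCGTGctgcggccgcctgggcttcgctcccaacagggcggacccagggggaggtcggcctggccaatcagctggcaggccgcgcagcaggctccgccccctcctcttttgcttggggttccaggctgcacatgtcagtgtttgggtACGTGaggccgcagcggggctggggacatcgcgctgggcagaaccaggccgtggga
Slc2a1: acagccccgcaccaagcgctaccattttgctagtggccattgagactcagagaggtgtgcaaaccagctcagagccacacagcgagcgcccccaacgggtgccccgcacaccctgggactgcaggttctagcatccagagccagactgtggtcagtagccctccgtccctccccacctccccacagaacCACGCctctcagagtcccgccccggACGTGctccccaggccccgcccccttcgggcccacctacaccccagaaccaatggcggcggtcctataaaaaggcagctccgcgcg
Tpi1: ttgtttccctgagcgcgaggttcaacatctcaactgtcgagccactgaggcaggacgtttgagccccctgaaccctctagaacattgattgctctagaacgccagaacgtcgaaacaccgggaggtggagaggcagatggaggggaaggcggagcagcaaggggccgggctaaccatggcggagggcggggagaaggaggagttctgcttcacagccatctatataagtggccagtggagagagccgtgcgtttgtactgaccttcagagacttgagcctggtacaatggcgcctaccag

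The step between 6 and 12 h was tested directly. Of all genes, 10.9% differed at 12 h from 6 h, 5.54% higher and 5.31% lower, and of the 34 members 25 were higher and 0 lower, with a median log2 fold change of 0.75 beside -0.0025 for all genes. This count was 25 without 6 h library 1, 24 without 12 h library 1 and 19 without 12 h library 3. Of all genes 1477 were called, but 2434, 657 and 798 without 6 h library 1, 2 or 3 and 890 without 12 h library 2, and 25, 20, 20 and 22 members passed in these fits. The largest were Bnip3 (1.91 ± 0.21), Slc2a3 (1.83 ± 0.55), Tpi1 (1.69 ± 0.15), Ankrd37 (1.68 ± 0.34), Pfkl (1.41 ± 0.18), Slc2a1 (1.38 ± 0.19), Aldoa (1.28 ± 0.14) and Pkm (1.16 ± 0.15). The calls of Egln1, Hk1, Hk2, P4ha1, Higd1a, Ero1l and Slc2a3 were lost when single libraries were left out. At 6 h itself the members described throughout did not pass. Slc2a1 was 0.24 ± 0.23 from 0 h, Hk2 0.07 ± 0.14, Ldha 0.02 ± 0.14, Pdk1 0.09 ± 0.13, Hif1a 0.13 ± 0.12, Ddit4 0.20 ± 0.12 and Vegfa -0.26 ± 0.19 on the log2 scale. The smallest adjusted p of a member there was 0.908, for Hk1 (0.30) and Pfkfb3 (0.31). Library 1 of 6 h was the highest of its 3 for 12 of the 15 enzymes, with a summed enzyme level of 1287 CPM against 917 and 896 CPM in libraries 2 and 3.

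Between 12 and 24 h the count of genes that changed was small and depended on single libraries. At 24 h 26 of 13610 genes differed from 12 h (0.191%), with 0.154% lower and 0.0367% higher, and the median of all genes was 0.00064 on the log2 scale. Of the 34 members 10 were lower and 0 higher, with a median member of -0.55, and the 10 were Bnip3, Egln3, Ankrd37, Tpi1, Slc2a1, Eno1, Pdk1, Aldoa, P4ha1 and Kdm3a. The 21 genes that fell held these 10, 3 further genes of the HIF target list (Plod2, Fam162a and Ndrg1) and 8 others, and the 5 that rose were led by Egr1, an immediate early gene (3.43). Both lists were made with earlier results of these data known. Ankrd37 was -2.28 ± 0.35 at 24 h against 12 h (adjusted p = 0.00123), Bnip3 -1.94 ± 0.20 (adjusted p = 2.15e-06), Slc2a1 -1.17 ± 0.19 (adjusted p = 0.00156) and P4ha1 -1.05 ± 0.21 (adjusted p = 0.0164, edgeR). Tpi1 fell by 0.87, Aldoa by 0.83, Egln3 by 0.82, Eno1 by 0.80, Pdk1 by 0.73 and Kdm3a by 0.71 on the log2 scale. In each of the 10 except Kdm3a and P4ha1 the call remained on leaving out any single library.

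The number of members lower at 24 h than at 12 h depended on single libraries. It was 17 of 49 genes lower in all without 6 h library 1, 15 of 123 without 12 h library 1, 8 of 9 without 12 h library 3, 8 of 10 without 24 h library 1 and 8 of 12 without 24 h library 3. The genes called in either direction numbered 60, 213, 10, 11 and 13 in these fits, beside 26 with all libraries. Kdm3a and P4ha1 were not called without 12 h library 3 (adjusted p = 0.357 and 0.234), without 24 h library 1 or 3, and, for Kdm3a, without 24 h library 2 or with scaling by library size alone. Ldha did not pass (-0.56, adjusted p = 0.0898), although it was called without 6 h library 1 (adjusted p = 0.00522), without 12 h library 1 (adjusted p = 0.0271) and by DESeq2 (adjusted p = 0.0208). Pgk1 (-0.58, adjusted p = 0.0733), Pgam1 (-0.55, adjusted p = 0.081) and Pfkp (-0.56, adjusted p = 0.0905) did not pass. Hk2 was -0.25 ± 0.13, Ddit4 -0.34 ± 0.12, Vegfa -0.26 ± 0.16 and Hif1a 0.03 ± 0.12, none of them past the threshold.

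How much of the 12 h rise was left differed by gene. For the 23 members higher at 12 h, the mean CPM above 0 h was taken as a percentage of the difference between 12 h and 0 h. These members were picked for that difference, so the shares are a description with no test. At 18 h the median share was 71.1% over 13 enzymes and 66.8% over 10 other members. At 24 h it was 39.3% over the enzymes, with a range of -0.68% for Aldoc to 80.2% for Hk1. It was 11.4% over the other members, with a range of -15.8% for P4ha1 to 71.5% for Mif. Bnip3 kept 2.06%, Bnip3l -0.185%, Ankrd37 -4.73%, Egln3 11.3%, Pdk1 11.5% and Slc2a1 17.5%. Of the enzymes, Pfkl kept 57.7%, Pkm 48.5%, Ldha 40.8%, Tpi1 36.2%, Aldoa 31.1% and Eno1 9.72%. Over all 34 tested members the highest mean was at 12 h for 28, among them all 15 enzymes, at 18 h for 3, at 24 h for 2 and at 6 h for 1.

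**Figure D3:**
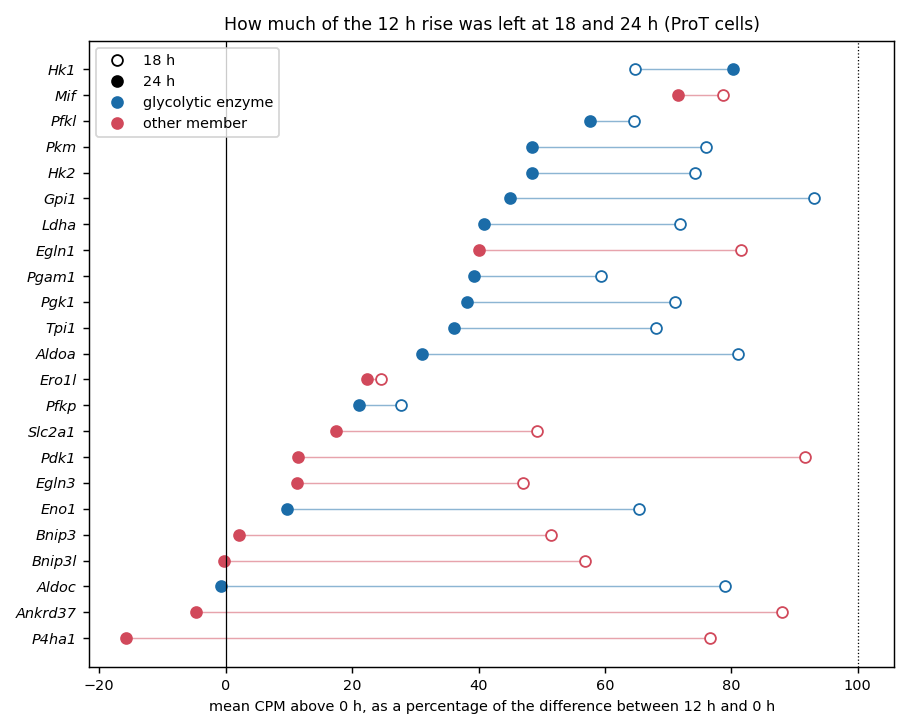
Mean CPM above 0 h at 18 h (open circles) and 24 h (filled circles), as a percentage of the difference between 12 h and 0 h (horizontal axis), for the 23 members that were higher at 12 h in ProT cells; there are no error bars, and the dotted line is the full 12 h difference. At 24 h the enzymes (blue) have a median of 39.3% and the other members (red) of 11.4%, with Mif at 71.5% and Eno1 at 9.72% as the opposite cases.

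Further genes of these pathways, which are not members, numbered 72. Of the 51 tested in ProT cells, 10 were higher and 1 lower (12 h), 7 higher and 1 lower (18 h), and 11 higher and 6 lower (24 h), with median log2 fold changes of 0.19, 0.16 and -0.06. Beside these, the shares of all genes called higher were 6.33% (12 h), 4.89% (18 h), 9.43% (24 h). Those called lower made up 5.69% (12 h), 3.92% (18 h), 9.3% (24 h). Whether this list or any part of it exceeded those shares was not tested, so its counts are a description. At 12 h Pgm2 (named Pgm1 in GENCODE M21, a phosphoglucomutase, 1.21), Ak4 (a mitochondrial adenylate kinase and HIF target, 1.16), Pdk3 (another pyruvate dehydrogenase kinase, 0.85), G6pdx (the entry to the pentose phosphate pathway, 0.77) and Fam162a (a HIF target, 0.77) were the highest. Ak4 had 17.6, 15.9 and 13.6 CPM (0 h), 18.0, 14.4 and 12.7 CPM (6 h), 33.8, 29.8 and 40.4 CPM (12 h), 21.1, 27.9 and 24.0 CPM (18 h) and 26.1, 24.97 and 21.2 CPM (24 h), so that all 12 h libraries were above all libraries of 0 and 6 h. Tfrc, the transferrin receptor, which is also known as a HIF target, went the other way, with -0.54 ± 0.11 (12 h, adjusted p = 0.00152) and -0.58 ± 0.11 at 24 h. Of the 12 pentose phosphate and glycogen genes, 4 were higher at 12 h, and at 24 h 5 were higher and 1 was lower, among them Pgm2 (0.81), Gys1 (glycogen synthase, 0.73) and Rpia (a pentose phosphate isomerase, 0.68) higher. Of 20 other HIF targets 15 were tested, and at 24 h 1 was higher and 3 were lower than at 0 h, led by Kdm4c, a histone demethylase (-1.06). Arnt2, a relative of the partner of HIF1A, was higher at 24 h (1.76).

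In thymus labelled TAL1, against empty vector, 0 of 33 tested members passed, where 5.04% of all genes did (2.16% higher and 2.88% lower). The 6 members with an unadjusted p under 0.05 were Slc16a1, Pgk1, Tpi1, Pgam1, Ldha and Vegfa, and DESeq2 called 4 members, all higher (Slc16a1, Tpi1, Pgk1 and Pgam1). The median member was 0.09 and the median enzyme 0.28 on the log2 scale, beside -0.0036 for all genes. Slc16a1 had 169.7, 191 and 164 CPM in mice labelled TAL1, against 149.9, 84.1 and 95.7 CPM with empty vector (0.66 ± 0.18, adjusted p = 0.0514, edgeR). Tpi1 had 32.6, 32.4 and 28.1 CPM in mice labelled TAL1, against 22.1, 18.5 and 12.2 CPM with empty vector (0.81 ± 0.23, adjusted p = 0.0677). In neither gene did the groups overlap, and the differences did not pass over all genes.

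Pgk1 had 79.9, 67.8 and 71.9 CPM in mice labelled TAL1, against 50.4, 54.3 and 54.7 CPM with empty vector (0.46 ± 0.13, adjusted p = 0.0598). Pgam1 had 61.8, 83.3 and 60.0 CPM in mice labelled TAL1, against 55.1, 42.2 and 40.4 CPM (0.57 ± 0.17, adjusted p = 0.0874). Ldha had 155, 193 and 168 CPM, against 121.9, 149.7 and 134 CPM with empty vector (0.35 ± 0.12, adjusted p = 0.129, edgeR). The groups did not overlap in these either. Without empty-vector mouse M311, 3 members passed (Slc16a1, Tpi1 and Pgam1), and without mouse M315 Ddit4 alone did, lower (-0.68, adjusted p = 0.0238).

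Among the members described throughout, the direction was mixed. Slc2a1 had 11.4, 7.15 and 10.5 CPM in mice labelled TAL1, against 14.6, 12.1 and 16.6 CPM with empty vector (-0.58 ± 0.28), and the groups did not overlap. Hk2 had 22.0, 22.7 and 8.81 CPM in mice labelled TAL1, against 9.15, 10.3 and 13.9 CPM (0.67 ± 0.35), with overlap. Pdk1 had 159, 99.8 and 125 CPM in mice labelled TAL1, against 134, 156 and 189.6 CPM (-0.32 ± 0.17), also with overlap. None of these passed, and the adjusted p of each was above 0.3. Ddit4 had 143, 113 and 114 CPM in mice labelled TAL1, against 195, 198 and 103 CPM with empty vector (-0.42 ± 0.20). Hif1a had 105, 106 and 102 CPM in mice labelled TAL1, against 99.0, 91.8 and 102 CPM with empty vector (0.09 ± 0.11), and both overlapped. Vegfa had 10.01, 10.6 and 4.76 CPM in mice labelled TAL1, against 5.99, 3.86 and 1.47 CPM with empty vector (1.13 ± 0.51), with overlap, and these 3 genes did not pass either.

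Of the 12 cell division genes, 7 were higher in mice labelled TAL1, where 2.16% of all genes were. Their summed level was 3521 to 4286 CPM against 2221 to 2371 CPM with empty vector, and none was at 0. Their part in the enzyme values was not tested. Summed T cell markers were 10770.0 to 12420.0 CPM in mice labelled TAL1, against 8390.0 to 10640.0 CPM with empty vector, and endothelial markers 104 to 109.8 against 144 to 189.8 CPM. The endothelial sum was nearly all Pecam1 (103.5 to 109.8 against 143.5 to 188.1 CPM). Cdh5, Kdr and Tek were at most 1.66 CPM in these mice, so the sum does not show a difference in endothelial cells. Mouse M318, labelled TAL1, stood apart in myeloid markers at 371 CPM, with 160 CPM of S100a8, against 10 and 13.1 CPM in the others labelled TAL1 and 16.3 to 28.8 CPM with empty vector.

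In thymus labelled AKT(E17K) with TAL1, against AKT(E17K) alone, 0 of 33 tested members passed and 0% of all genes did by edgeR (709 of all genes and 2 members had an unadjusted p under 0.05). DESeq2 called 76 genes and 0 members. The median member was -0.02 on the log2 scale, beside -0.01 for all genes, and the median enzyme was -0.18. Pfkp had 147, 142 and 143 CPM in mice labelled AKT(E17K) with TAL1, against 103, 113 and 98.0 CPM with AKT(E17K) alone (0.46 ± 0.19, adjusted p = 0.676, edgeR). Hk1 had 106, 103 and 99.3 CPM with TAL1, against 161, 247 and 101 CPM without (-0.72 ± 0.31, adjusted p = 0.68). The groups overlapped for Hk1 and did not for Pfkp.

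Mif had 922, 590.3 and 829 CPM in mice labelled AKT(E17K) with TAL1, against 1775, 1806 and 619 CPM with AKT(E17K) alone (-0.84 ± 0.40, adjusted p = 0.692, edgeR). Eno1 had 120.8, 139 and 161 CPM with TAL1, against 186, 186 and 194 CPM without (-0.43 ± 0.21). Gapdh had 49.3, 39.9 and 64.3 CPM with TAL1, against 27.5, 40.0 and 36.5 CPM without (0.56 ± 0.28). The groups overlapped for Mif and Gapdh and not for Eno1, and all 3 genes share sequence with copies. Pfkm had 12.3, 20.1 and 12.6 CPM with TAL1, against 32.0, 17.4 and 23.9 CPM without (-0.71 ± 0.37). Ldha had 494, 317.4 and 499.5 CPM with TAL1, against 831, 710.0 and 415 CPM without (-0.58 ± 0.31). Both overlapped.

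The glucose transporter gene Slc2a1 had 13.0, 6.36 and 1.86 CPM with TAL1, against 9.93, 8.43 and 9.77 CPM without (-0.39 ± 0.63). Hk2 had 87.0, 25.1 and 34.0 CPM with TAL1, against 70.5, 43.7 and 23.7 CPM without (0.09 ± 0.51). Pdk1 had 41.5, 60.0 and 55.0 CPM with TAL1, against 51.3, 76.9 and 68.4 CPM without (-0.33 ± 0.26). The groups overlapped in each, and 1 mouse with TAL1 had the highest level of Slc2a1 and of Hk2. Hif1a had 77.8, 78.0 and 75.0 CPM with TAL1, against 69.5, 57.4 and 74.6 CPM without (0.19 ± 0.21), and every mouse with TAL1 was above every mouse without. Ddit4, an inhibitor of mTORC1 signalling, had 237, 286 and 391 CPM with TAL1, against 242, 482 and 289 CPM without (-0.15 ± 0.31). Vegfa, the vascular growth factor, had 7.75, 10.2 and 5.59 CPM with TAL1, against 5.13, 15.3 and 2.83 CPM without (0.08 ± 0.66). Both overlapped, and none of these 6 genes passed. The signs for Slc2a1, Hk2, Ddit4 and Vegfa changed on leaving out single mice.

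The spread among these mice was wide. Pgam1 had 237, 15.9 and 210.2 CPM in mice m116, m117 and m119 labelled AKT(E17K) with TAL1, against 261, 245 and 367 CPM in mice m121, m122 and m124 with AKT(E17K) alone, so that m117 was far below every other mouse. Slc16a3 had 93.3, 40.3 and 34.0 CPM with TAL1, against 12.5, 80.1 and 22.4 CPM without. Ldha had 494, 317.4 and 499.5 CPM with TAL1, against 831, 710.0 and 415 CPM without, with overlap. Mouse m121 stood apart in stromal markers, at 384 CPM (Col1a1 136.8 CPM). The stromal sum was 11.1 and 22.1 CPM in m122 and m124 and 12.6 to 28.2 CPM with TAL1. Of the myeloid markers, Lyz2 was 622 CPM in m121, 13.7 and 48.4 CPM in m122 and m124, and 37.42 to 145 CPM with TAL1. Csf1r was also highest in m121 (103.8 CPM, against 26.34 and 30.86 CPM in m122 and m124). S100a8 (18.9 CPM, against 20.02 and 56.58 CPM), S100a9 (22.1 CPM, against 5.794 and 41.66 CPM) and Itgam were not highest in m121. Erythroid markers varied from 85.3 to 938 CPM over the 6 mice. Without m121, 0 members passed.

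The effect of the TAL1 label with AKT(E17K) minus its effect without was fitted over the 12 mice. Of 10947 genes 18 passed (0.164%, all positive; 173 without mouse m124, 105 of them positive), and 0 of the 34 tested members did, 6 of them with an unadjusted p under 0.05, and DESeq2 called 0. The median member was -0.07, beside -0.01 for all genes. The difference was 0.71 ± 0.24 for Pfkp, -0.76 ± 0.29 for Slc16a1, -0.90 ± 0.34 for Ldha, -1.09 ± 0.46 for Tpi1, -1.12 ± 0.47 for Mif and -1.05 ± 0.45 for Pfkm, with adjusted p of 0.291 or more. It was 0.21 ± 0.69 for Slc2a1, -0.56 ± 0.70 for Hk2, 0.02 ± 0.33 for Pdk1, 0.12 ± 0.21 for Hif1a, 0.30 ± 0.41 for Ddit4 and -1.03 ± 0.91 for Vegfa. Without AKT(E17K) mouse m124, Mif passed (-1.47, adjusted p = 0.0311).

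**Figure D4:**
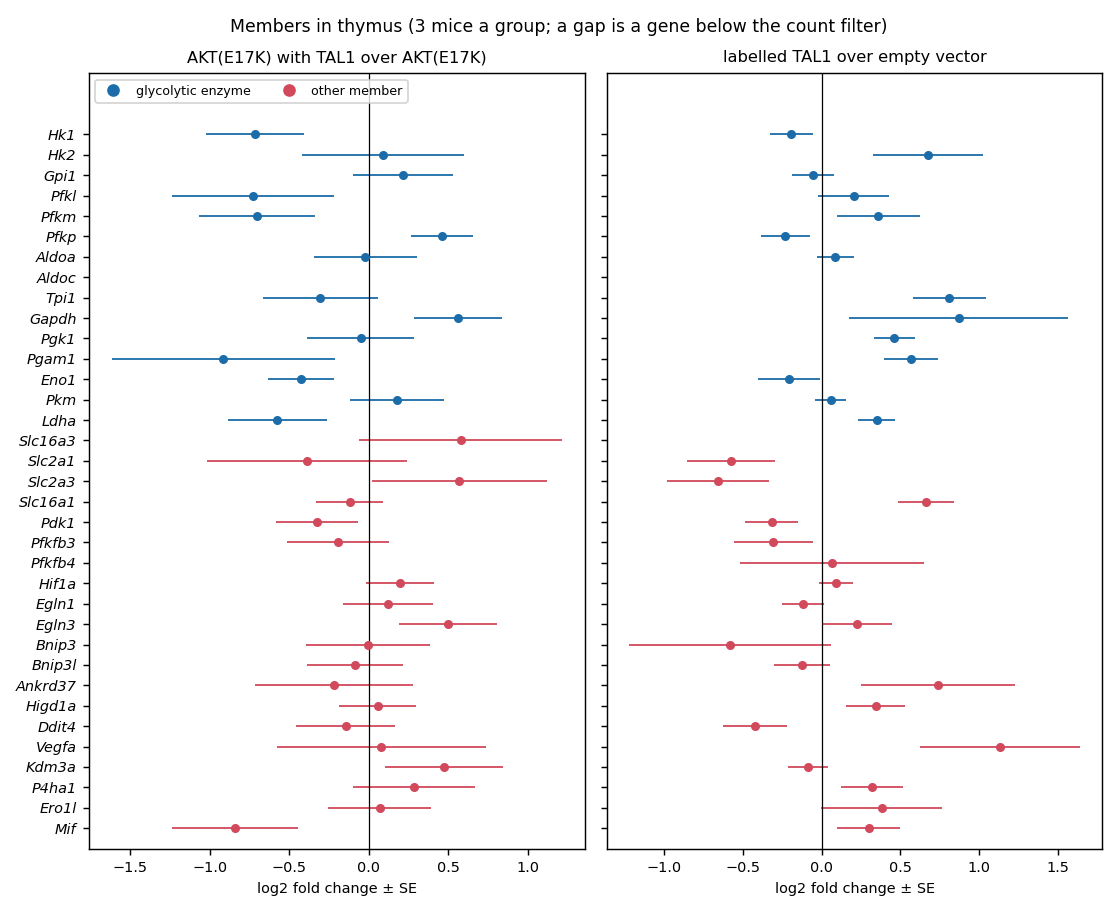
Log2 fold change ± SE (horizontal axis) of each tested member in thymus, for AKT(E17K) with TAL1 over AKT(E17K) on the left and for mice labelled TAL1 over empty vector on the right, 3 mice a group. Enzymes are blue and other members red, and 0 of 33 members passed the threshold on either side; a gene below the count filter has no point.

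Levels across the 9 groups are given as values only, because the tables are separate experiments and the difference between groups in different tables cannot be told apart from the table. The summed level of the 15 enzymes was 3580.0, 2555 and 3583 CPM in mice labelled AKT(E17K) with TAL1, 3562, 4475 and 2642 CPM with AKT(E17K) alone, 979, 1017 and 1006 CPM with TAL1 and 922, 938 and 881 CPM with empty vector. In ProT cells it was 889, 925 and 1033 CPM (0 h), 1287, 917 and 896 CPM (6 h), 2108, 2103 and 2169 CPM (12 h), 1908, 2029 and 1507 CPM (18 h) and 1426, 1393 and 1439 CPM (24 h). The 6 mice of the AKT(E17K) table were thus the highest, the 12 h ProT libraries next, and the lowest were the 0 h libraries, 6 h libraries 2 and 3 and the mice without AKT(E17K). The 21 other members summed to 2166, 1748 and 2194 CPM with AKT(E17K) and TAL1, 2893, 3222 and 1843 CPM with AKT(E17K), 1058, 947 and 931 CPM with TAL1 and 999, 975 and 968 CPM with empty vector.

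Pkm and Higd1a were also highest in the AKT(E17K) table. Their levels are uncertain, since 34.4% (Pkm) and 36.6% (Higd1a) of their windows occur in other genes. In Higd1a 22.5% of exon bases also overlap another gene. Pkm was 993 to 1310.0 CPM in mice labelled AKT(E17K) with TAL1, 767 to 1448 CPM with AKT(E17K), 213 to 234 CPM with TAL1 and 204 to 237 CPM with empty vector. Higd1a was 192 to 310.2 CPM in mice labelled AKT(E17K) with TAL1, 238 to 279 CPM with AKT(E17K), 26.3 to 27.8 CPM with TAL1 and 20.1 to 22.7 CPM with empty vector. Kdm3a and Pdk1 were lower in the AKT(E17K) table than in the other thymus table. Kdm3a was 33.8 to 56.5 CPM with AKT(E17K) and TAL1, 20.8 to 50.7 CPM with AKT(E17K), 96.4 to 123.5 CPM with TAL1 and 104 to 122.2 CPM with empty vector. Pdk1 was 41.5 to 60.0 CPM with AKT(E17K) and TAL1, 51.3 to 76.9 CPM with AKT(E17K), 99.8 to 159 CPM with TAL1 and 134 to 190 CPM with empty vector.

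Levels per kilobase of exon allow only a rough comparison between genes. The length counts every annotated exon of a gene, whether or not its transcript was present. Genes with shared windows, such as Mif (76.4%) and Pgk1 (68%), may also lose or share reads. In empty-vector mice the highest members by mean CPM per kilobase were Ddit4 (94.1), Mif (51.3), Pkm (43.5), Ldha (40.9) and Aldoa (30.2). In ProT cells at 12 h they were Mif (420), Aldoa (155), Pgam1 (105), Pkm (91.7) and Pgk1 (91.2). In mice labelled AKT(E17K) with TAL1, Mif (1050), Pkm (230) and Ddit4 (174) led. The hexokinases exchanged order. Per kilobase, Hk2 was 10.4 and Hk1 3.86 in ProT cells at 0 h, and in empty-vector mice Hk2 was 1.86 and Hk1 9.22.

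**Figure D5:**
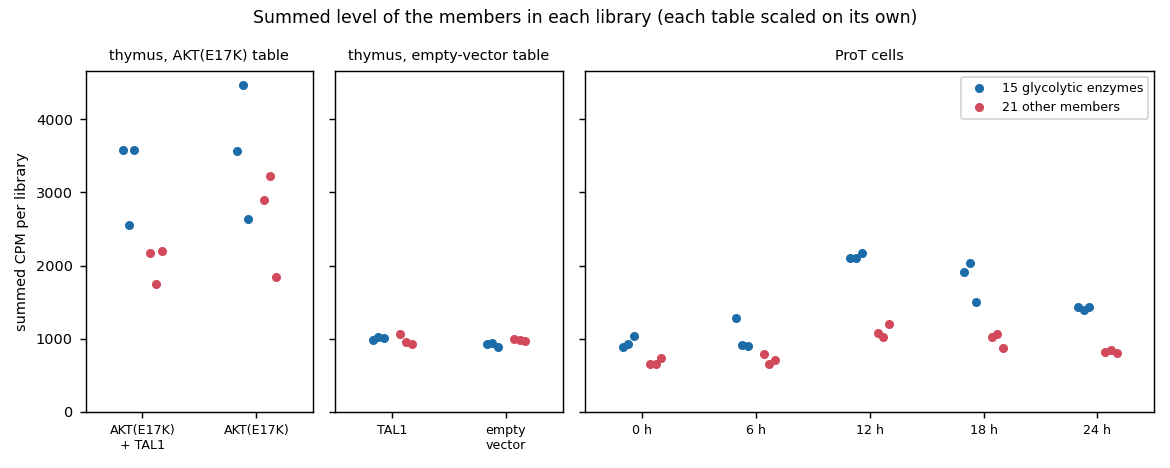
Summed CPM per library (vertical axis) of the 15 glycolytic enzymes (blue) and the 21 other members (red), 1 point per library, in the 2 thymus tables and in ProT cells by hours after 4-hydroxytamoxifen; each table was scaled on its own. The enzymes lie at 2555 to 4475 CPM in the AKT(E17K) table, at 881 to 1017 CPM in the empty-vector table and at 2103 to 2169 CPM in ProT cells at 12 h.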

How the data were processed

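The deposited files held raw whole-number counts per gene in 3 tables, with 0 columns that could not be mapped to a sample. Per the submitters' processing notes, FastQC, HISAT2, SAMtools and HTSeq were used with mm10 and GRCm38. Versions, annotation and strandedness are not given in the sources used here, so overlapping genes and near-identical copies may share or lose reads. HTSeq's own summary rows, where present, name no gene and were dropped before scaling: no-feature reads made up 17.3% to 33.0% and ambiguous reads 3.33% to 6.09%.

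From these counts, genes passing filterByExpr were tested with edgeR 4.0.16 in R 4.3.3 (TMM, quasi-likelihood F test, Benjamini-Hochberg adjustment over all genes, threshold 0.05). Each thymus comparison was fitted in its own table, the 15 ProT libraries in 1 fit, and the difference of effects over 12 mice. SE is the absolute log2 fold change over the square root of F. The procedure was also run on simulated counts with a common spread for all genes. That setting differs from these data, so it does not bear on single calls here. The members and all lists were chosen with earlier results of these data known. Values in every library are printed for up to 12 members called with the largest changes, for the 6 smallest p where under 5 were called, and for Slc2a1, Hk2, Ldha, Pdk1, Hif1a, Ddit4 and Vegfa, which are described throughout. Other genes were named after their values were seen. Alternatives were DESeq2 1.42.0, other scalings and filters, a replicate block, fits of 2 times and leaving out each library. Positions, exon lengths and shared 50-base windows came from GENCODE M21, and figures were drawn with matplotlib 3.10.9.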

Additional observations from a re-analysis of the deposited data

Results flagged for a closer look

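For 25 members the change after tamoxifen differed between 12 and 6 h in ProT cells, by the test of the difference itself (edgeR). The log2 fold changes of 12 h over 6 h for the enzymes were Tpi1 1.69, Pfkl 1.41, Aldoa 1.28, Pkm 1.16, Ldha 1.09, Pgk1 1.02, Pgam1 0.94, Eno1 0.81, Pfkp 0.79, Gpi1 0.73, Hk2 0.47 and Hk1 0.42. Those of the other members were Bnip3 1.91, Slc2a3 1.83, Ankrd37 1.68, Slc2a1 1.38, Egln3 0.94, Pdk1 0.78, Vegfa 0.75, Mif 0.75, P4ha1 0.74, Ero1l 0.71, Bnip3l 0.67, Higd1a 0.50 and Egln1 0.50. All 25 were higher at 12 h.

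For 10 members the change differed between 24 and 12 h by the same kind of test. The log2 fold changes of 24 h over 12 h were Tpi1 -0.87, Aldoa -0.83 and Eno1 -0.80 for enzymes and Ankrd37 -2.28, Bnip3 -1.94, Slc2a1 -1.17, P4ha1 -1.05, Egln3 -0.82, Pdk1 -0.73 and Kdm3a -0.71 for other members, and all 10 were lower at 24 h. Both comparisons use the 12 h libraries.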

How the results depend on the processing

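Counts of members called were within 1.5 times of those reported under each alternative run, except as follows. For mice labelled TAL1 against empty vector, where 0 members passed, DESeq2 and the fit without a filter on low counts each called 4, and leaving out 1 mouse gave 0 to 3. The difference of effects gave 0 to 1 on leaving out 1 mouse. For 24 h against 12 h, the fit without a filter called 17 and leaving out 1 library gave 8 to 17, beside 10. The cause was not tested. With the replicate number as a block, 23, 19, 12, 27, 25 and 10 members passed at 12, 18 and 24 h against 0 h, over all times, at 12 h against 6 h and at 24 h against 12 h, the counts found without it, although Aldoc at 12 h lost its call (adjusted p = 0.0649). The numbers gave no sign of pairing: deviations correlated between -0.143 and 0.213 in 30 pairs of same-numbered libraries, 1 of them over 0.1, and 4 of 15 libraries correlated best with their own number. In thymus the replicate numbers only name mice, and no block was fitted. Leaving out 1 library gave 22 to 26 members (12 h), 15 to 20 (18 h), 9 to 13 (24 h), 25 to 27 (all times) and 19 to 25 (12 h against 6 h). Counts of all genes moved by over 1.5 times in more cases. For mice labelled TAL1 against empty vector, 623 were called, 1107 without a filter and 337 to 661 on leaving out 1 mouse (337 without M312, 356 without M318, 359 without M315 and 403 without M317). For AKT(E17K) with TAL1 against AKT(E17K), 0 were called, 76 by DESeq2, 30 without a filter, 8 without mouse m124 and 1 without mouse m119. The difference of effects had 18, 186 by DESeq2, 58 without a filter and 2 to 173 on leaving out 1 mouse, the highest without m124. In fits of the 2 times alone, 2244 were called at 18 h against 0 h and 573 at 12 h against 6 h, beside 1200 and 1477, and without a filter 22 were higher and 99 lower at 24 h than at 12 h, beside 5 and 21.

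Among the members described in each comparison, signs changed in ones that were not called there. With scaling by library size alone, Ddit4 at 24 h against 0 h was 0.16 and Hif1a at 12 h against 6 h 0.052. Over the fits that each left out 1 library or mouse, the log2 fold change crossed 0 in the following cases. For AKT(E17K) with TAL1 against AKT(E17K) it ran from -0.37 to 0.20 for Ddit4, -0.64 to 0.55 for Hk2, -1.158 to 0.044 for Slc2a1 and -0.34 to 0.99 for Vegfa. For the difference of effects it ran from -0.14 to 0.20 for Pdk1 and -0.55 to 0.63 for Slc2a1. In ProT cells it ran from -0.038 to 0.22 for Hk2 and -0.20 to 0.14 for Ldha at 6 h against 0 h, -0.087 to 0.025 for Ddit4 at 24 h against 0 h, -0.12 to 0.015 for Hif1a at 12 h against 6 h and -0.021 to 0.075 for Hif1a at 24 h against 12 h. DESeq2 gave no adjusted p for Ankrd37 at 24 h against 12 h, which counts as no value. Depth limits low members most: Aldoc, Slc2a3, Slc16a3, P4ha2 and Pfkfb4 were under 10 CPM in every ProT library, and spread was widest in the AKT(E17K) table.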
